A study of Homo sapiens with 6 samples.

Results

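DNA methylation was examined at 8 genes of NODAL signalling, NODAL, GDF3, TDGF1, ACVR1B, ACVR2B, LEFTY1, LEFTY2 and CER1, of 19812 protein-coding genes with a canonical start on chromosomes 1 to 22 and X. The genes were taken by name and role, with earlier results of these data known. For each gene the promoter of every annotated transcription start (1000 bp upstream to 500 bp downstream), 20 tiles of 500 bp covering the 10 kb upstream of the canonical start, and the gene body were read on GRCh37 with GENCODE release 44. All 8 canonical promoters and all 8 bodies, and 93 of 160 upstream tiles, held at least 10 methylation calls in every library and were tested.

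The data are whole-genome bisulfite libraries, 3 Conventional and 3 Reset, of H9 cells. H9 is a widely used embryonic stem cell line of human origin. Conventional cells grew in 20% KSR, a serum replacement, with 10 ng/ml bFGF. Reset cells had been transfected with NANOG and KLF2 transgenes under doxycycline control, and after doxycycline was withdrawn they were kept in t2iL+Gö, which is 1 μM of the GSK3 inhibitor CHIR99021, 1 μM of the MEK inhibitor PD0325901, LIF and 5 μM of the protein kinase C inhibitor Gö6983. Both groups were grown on mouse embryonic fibroblast feeders in 5% oxygen, and all 6 libraries come from the same cell line, so no other genetic background was measured. Whether the Conventional cells carried the transgenes was not given in the sources used here, and the effects of the medium and of the transgenes cannot be told apart. The question behind the comparison is how the methylome of cells reset towards the naive state differs from that of conventional pluripotent cells. Libraries held 70329213 to 98004161 calls, or 2.51 to 3.49 calls per CpG, and 84.3 to 84.6% of all calls were methylated in Conventional against 29.5 to 30.3% in Reset libraries. The loss is genome-wide, so each result for the 8 genes is set beside the same value over all genes.

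NODAL is a secreted ligand of the TGF-beta family. With the co-receptor TDGF1 (CRIPTO) it binds a type I receptor such as ACVR1B (ALK4) and a type II receptor such as ACVR2B, and the activated receptors phosphorylate SMAD2 and SMAD3, which act with SMAD4 and with DNA-binding partners such as FOXH1. The pathway switches on its own ligand and its own inhibitors, the LEFTY proteins, and in conventional human pluripotent cells activin and NODAL signals help to maintain the undifferentiated state. DNA methylation at CpG sites of a promoter is commonly associated with low transcription, whereas methylation of gene bodies is usual in transcribed genes. RNA was not examined here, so the levels below describe methylation and not expression.

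Stretches that show the kinds of promoter found are given first, read from GRCh37 on the strand of each gene, 5′ to 3′, with the CpG sites in capitals. All lie upstream of the canonical start and overlap no annotated exon. The NODAL stretch (chr10:72201438-72201687, minus strand), which lies in an intron of a longer NODAL transcript, had no methylated call of 57 in Conventional and of 18 in Reset cells, which allows a level of up to 5.26 and 16.7% (3 calls, counting error only). The LEFTY2 stretch (chr1:226129421-226129670, minus strand) is from a promoter that fell. The CER1 stretch (chr9:14722732-14722981, minus strand) is from a promoter with a higher mean level in Reset cells that did not pass the test.
NODAL, 250 to 1 bases upstream: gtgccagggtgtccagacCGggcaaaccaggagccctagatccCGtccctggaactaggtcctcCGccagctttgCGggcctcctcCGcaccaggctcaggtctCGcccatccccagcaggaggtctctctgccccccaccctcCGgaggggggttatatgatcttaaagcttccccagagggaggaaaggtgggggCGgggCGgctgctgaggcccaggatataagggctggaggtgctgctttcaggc
LEFTY2, 750 to 501 bases upstream: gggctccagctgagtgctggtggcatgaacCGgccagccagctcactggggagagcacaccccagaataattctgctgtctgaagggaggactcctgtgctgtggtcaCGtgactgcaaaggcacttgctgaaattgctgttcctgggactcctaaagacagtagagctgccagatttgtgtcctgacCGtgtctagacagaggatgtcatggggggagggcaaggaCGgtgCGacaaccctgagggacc
CER1, 250 to 1 bases upstream: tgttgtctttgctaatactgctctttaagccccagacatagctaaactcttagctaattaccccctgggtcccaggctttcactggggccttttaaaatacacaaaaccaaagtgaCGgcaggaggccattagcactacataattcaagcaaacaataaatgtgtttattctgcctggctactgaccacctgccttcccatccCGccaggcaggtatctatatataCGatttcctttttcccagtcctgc

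Of the 8 canonical promoters, 3 fell in Reset cells (GDF3, LEFTY1 and LEFTY2), none rose, and 5 did not pass the test. Over all 19293 promoters tested, 67.4% fell and 3.98% rose. The fall was therefore seen in a smaller share of these promoters than of all promoters, and no test of that difference was made. Levels sorted the 8 promoters into those that were already under 4% in Conventional cells (NODAL, TDGF1, ACVR1B and ACVR2B), CER1 at 10.2%, and the 3 that fell, which began between 37.3% and 76.8%. The median Conventional level was 7.02% for the 8 promoters and 15.4% for all promoters. Unless another test is named, each test is a quasi-binomial logistic model of methylated and unmethylated calls with a likelihood-ratio F test, its dispersion moderated with limma across all features, and every adjusted p is by the Benjamini-Hochberg method over the whole table of that feature type. Levels are means of 3 library percentages with their SD.

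**Figure D1:**
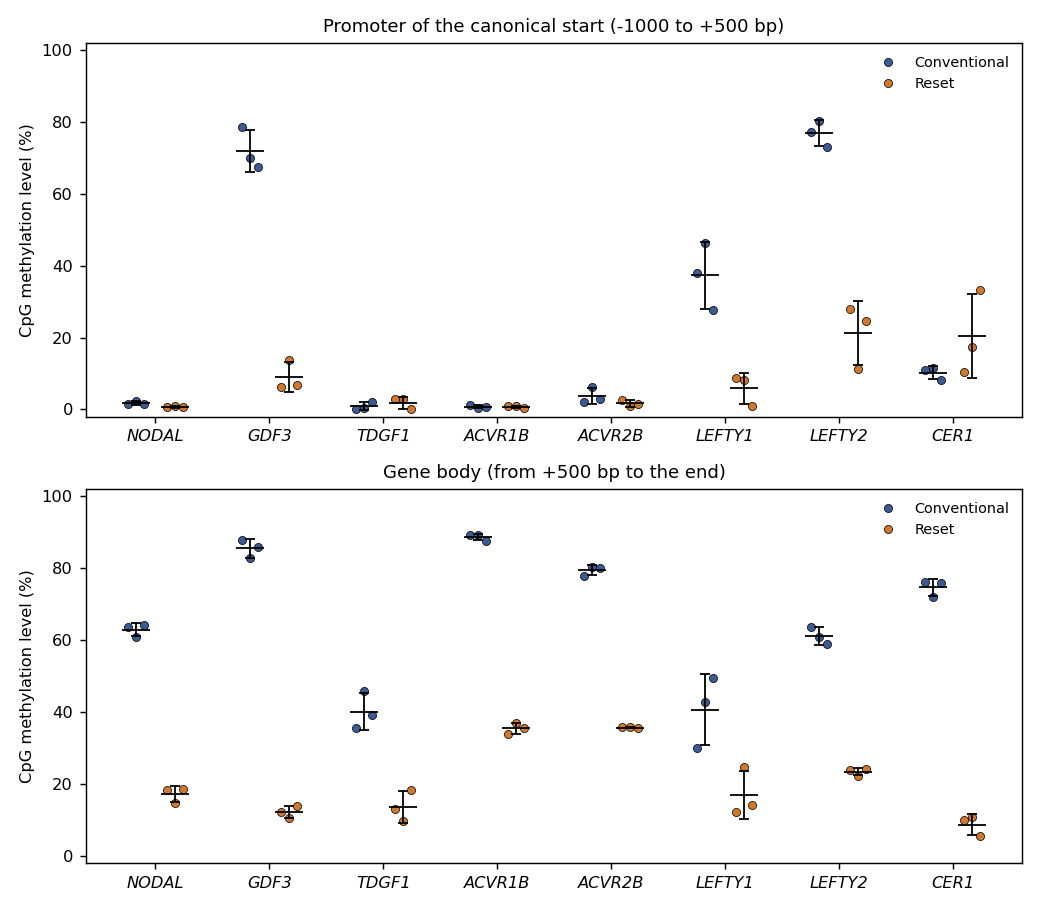
CpG methylation level (y axis, %) of the canonical promoter (top) and the body (bottom) of the 8 genes, with 1 point per library, horizontal bars at the mean of 3 libraries and error bars of 1 SD, Conventional in blue and Reset in orange. At the promoters GDF3, LEFTY1 and LEFTY2 are lower in Reset with no overlap and 4 genes lie under 7% in every library, whereas all 8 bodies are lower in Reset.

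Among the ligands, NODAL had an unmethylated promoter in both states. Its canonical promoter (ENSG00000156574, chr10:72200937-72202437, 71 CpGs) was at 1.47, 2.31 and 1.59% in Conventional and at 0.662, 0.926 and 0.565% in Reset libraries. The Reset values were all lower, but the difference of -1.07 points did not pass the test (adjusted p = 0.246 in the quasi-binomial model). From -2000 to +500, a window that reaches further upstream, the promoter fell by 13.2 points (adjusted p = 1.852e-05). In the 250 bases after the start no call was methylated of 110 in Conventional and 149 in Reset cells, which allows a level of up to 2.73 and 2.01%. The low stretch was wider than the promoter window. In Conventional cells the pooled level stayed under 10% in every window of 250 bp from the window centred at -1125 to that centred at 1375 bases from the start, and was 58.1% in the window centred at -1375 and 62.7% in the window centred at 1625. In Reset cells these edge windows were at 5.88 and 4.49%, so the methylation that bordered the low stretch in Conventional cells was nearly absent. These windows were not tested.

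GDF3, a ligand of the same family that can act through the NODAL receptors, had the deepest fall of the 8 promoters. The promoter (ENSG00000184344, chr12:7847871-7849371, 23 CpGs) was at 78.5, 69.8 and 67.5% in Conventional and at 6.19, 13.7 and 6.93% in Reset libraries. The mean fell from 71.9 ± 5.80 to 8.95 ± 4.15% (SD, n = 3 each), a difference of -63.0 points with adjusted p = 1.285e-07 in the quasi-binomial model, and the lowest Conventional library was far above the highest Reset library. In the first 250 bases of the gene each of the Conventional libraries was at exactly 50% (76 calls in all) and the Reset libraries were at 0, 8.70 and 0%. Reset cells kept 12.4% of the Conventional level over the whole promoter. Among the 5125 promoters at 50% or more in Conventional cells the median share kept was 37.1% (quartiles 24.5 and 48.2%), and 8.82% of them kept less than GDF3.

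The co-receptor TDGF1 lay in a long stretch of low methylation in both states. Its canonical promoter (ENSG00000241186, chr3:46618278-46619778, 49 CpGs) was at 0, 0.518 and 2.10% in Conventional and at 2.94, 2.86 and 0% in Reset libraries, and the groups overlapped (adjusted p = 0.356). From -4000 to the start, 84 CpGs were at 2.39 ± 0.899% in Conventional and 4.35 ± 1.70% in Reset cells. Inside the gene the pooled level stayed under 7% in the windows of 250 bp with at least 10 calls up to the window centred at 2125 (6.52% in Conventional and 4.08% in Reset cells). In Conventional cells it was 43.6% in the next window and 100% in the window centred at 3875, where Reset cells were at 4.35 and 41.5%. Upstream, from -10000 to -4501, 52 CpGs were at 91.2 ± 3.74% in Conventional and 38.0 ± 1.10% in Reset cells. These stretches were chosen after the values had been seen and were not tested. The gene LRRC2 overlaps the TDGF1 promoter. TDGF1 has processed pseudogenes elsewhere in the genome, so reads could in part have been shared with them.

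The receptor promoters were low in both states as well. ACVR1B, the type I receptor, was at 0.776 ± 0.432% in Conventional and 0.770 ± 0.283% in Reset cells over 126 CpGs (ENSG00000135503, chr12:52344483-52345983, adjusted p = 0.957). No methylated call was seen in the 500 bases after its start, in 202 Conventional and 250 Reset calls, which allows a level of up to 1.49 and 1.2%. ACVR2B, the type II receptor, was at 2.16, 6.37 and 2.86% in Conventional and at 2.73, 0.917 and 1.44% in Reset libraries (ENSG00000114739, chr3:38494381-38495881, 120 CpGs, adjusted p = 0.186). Without Conventional replicate 1 the difference was -2.92 points, with adjusted p = 0.0665 among canonical promoters and 0.04997 among all starts. Without Conventional replicate 2 the ACVR2B difference was -0.814 points (adjusted p = 0.636 among canonical promoters). Its methylated calls lay mostly at the upstream edge, where the window from 1000 to 751 bases upstream was at 30.2 ± 15.1% in Conventional and 12.6 ± 13.1% in Reset cells. The antisense gene ACVR2B-AS1 overlaps this promoter. From -2000 to +500 both receptors fell, ACVR1B by 11.0 points (adjusted p = 1.578e-04) and ACVR2B by 14.2 points (adjusted p = 2.457e-04).

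Of the secreted inhibitors, LEFTY1 and LEFTY2 lost promoter methylation. Both bind NODAL and its co-receptor and limit how far the signal spreads, and the genes lie as a tandem pair on chromosome 1 with 52074 bases between their starts. LEFTY2 (ENSG00000143768, chr1:226128420-226129920, 29 CpGs) was at 77.3, 80.2 and 72.9% in Conventional and at 28.0, 11.2 and 24.7% in Reset libraries. Its mean fell from 76.8 ± 3.65 to 21.3 ± 8.87% (adjusted p = 1.107e-06). LEFTY1 (ENSG00000243709, chr1:226076346-226077846, also 29 CpGs) was at 38.0, 46.3 and 27.6% against 8.62, 8.11 and 0.952%, and its mean fell from 37.3 ± 9.39 to 5.89 ± 4.29% (adjusted p = 4.182e-05). For both genes every Reset library was below every Conventional library.

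LEFTY1 therefore started from a lower level than LEFTY2 with the same number of CpGs. By the edit distance of a global alignment, their promoters were 64.2% identical over the whole window and 52.4% identical over its upstream 1000 bases. The value that unrelated sequences give on this measure was not computed, so the 52.4% does not show shared sequence. LEFTY1 had 12 CpGs and LEFTY2 had 7 in those upstream bases. From 250 to 499 bases downstream LEFTY1 was at 25.7 ± 6.64 and 7.18 ± 6.33%, whereas LEFTY2 was at 83.8 ± 8.16 and 36.9 ± 18.0%. The LEFTY2 stretch printed above was at 68.2 ± 13.2% in Conventional and 3.89 ± 3.47% in Reset cells, on 12 or more calls per library. LEFTY1 kept 15.8% and LEFTY2 27.7% of the Conventional level over the promoter. Among promoters at 20 to 50% in Conventional cells the median share kept was 28.1%, and among those at 50% or more it was 37.1%. The coding sequences of the pair are near copies, and reads between them could have been shared or discarded in mapping. Calls per CpG over LEFTY1 and LEFTY2 with their upstream stretches were 0.726 to 1.01 times the mean of the same library.

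CER1, an inhibitor of the Cerberus family that binds NODAL outside the cell, had a higher mean promoter level in Reset cells that did not pass the test. Its promoter (ENSG00000147869, chr9:14722231-14723731, 15 CpGs) was at 10.9, 11.6 and 8.20% in Conventional and at 10.5, 17.4 and 33.3% in Reset libraries. The mean was 10.2 ± 1.80% against 20.4 ± 11.7%, the groups overlapped, and the difference was 10.2 points (adjusted p = 0.129). The library Reset replicate 3 decides much of it, since without it the difference was 3.73 points (adjusted p = 0.494). With the promoter from -2000 to +500 the direction turned, to -8.74 points (adjusted p = 0.130). Fisher's exact test on the pooled calls, which leaves out the spread between libraries, gave adjusted p = 0.0344. Upstream of the start the values lay further apart. With tiles of 1000 bp in place of 500 bp, the tile next to the start (8 CpGs) was at 5.41, 5.41 and 5.56% in Conventional and at 6.25, 27.8 and 40% in Reset libraries. That tile passed the test (adjusted p = 0.00646) on only 15 to 18 calls in each Reset library, and it no longer passed without Reset replicate 3 (adjusted p = 0.0782). Without Reset replicate 2 it passed, with adjusted p = 0.0328.

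The 8 genes have 24 annotated starts, many of which share calls, and their promoters were tested in 1 table with 142805 starts of all genes. Of the 24, 10 fell and none rose, where 77.2% of all starts fell and 2.77% rose. NODAL, ACVR1B and ACVR2B each held a start of another kind from the unmethylated canonical start. The NODAL one belongs to a protein-coding transcript. The last ACVR1B start belongs to a transcript without a defined coding sequence, and the last ACVR2B start to one annotated as a retained intron. Both lie inside the gene. The upstream NODAL start, 6270 bases away, was at 88.3, 95.9 and 93.5% in Conventional and at 21.6, 37 and 25.5% in Reset libraries (adjusted p = 4.965e-08). The last ACVR1B start, 32336 bases into the gene, went from 96.3 ± 4.25 to 29.7 ± 3.05%, and an ACVR1B start near the edge of the unmethylated stretch went from 44.1 ± 6.66 to 12.3 ± 2.68%. The last ACVR2B start, 19556 bases into the gene, went from 93.8 ± 3.17 to 53.6 ± 9.45%.

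ACVR2B thus kept 57.2% of the level at this internal start of a retained-intron transcript. Of the 66167 starts at 50% or more in Conventional cells, 92.2% kept less. The upstream LEFTY1 start, 22236 bases from the canonical start, went from 42.0 ± 2.85 to 16.8 ± 4.83%. The other LEFTY2 starts went from 75.8 ± 5.06 to 18.9 ± 8.13% and from 44.4 ± 6.51 to 18.6 ± 3.35%. The upstream LEFTY1 start and the LEFTY2 start at 44.4% also belong to transcripts without a defined coding sequence. By contrast all 5 TDGF1 starts were at or under 2.78% in the mean of either group, as were the 5 clustered starts of ACVR1B, and none of these passed the test.

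**Figure D2:**
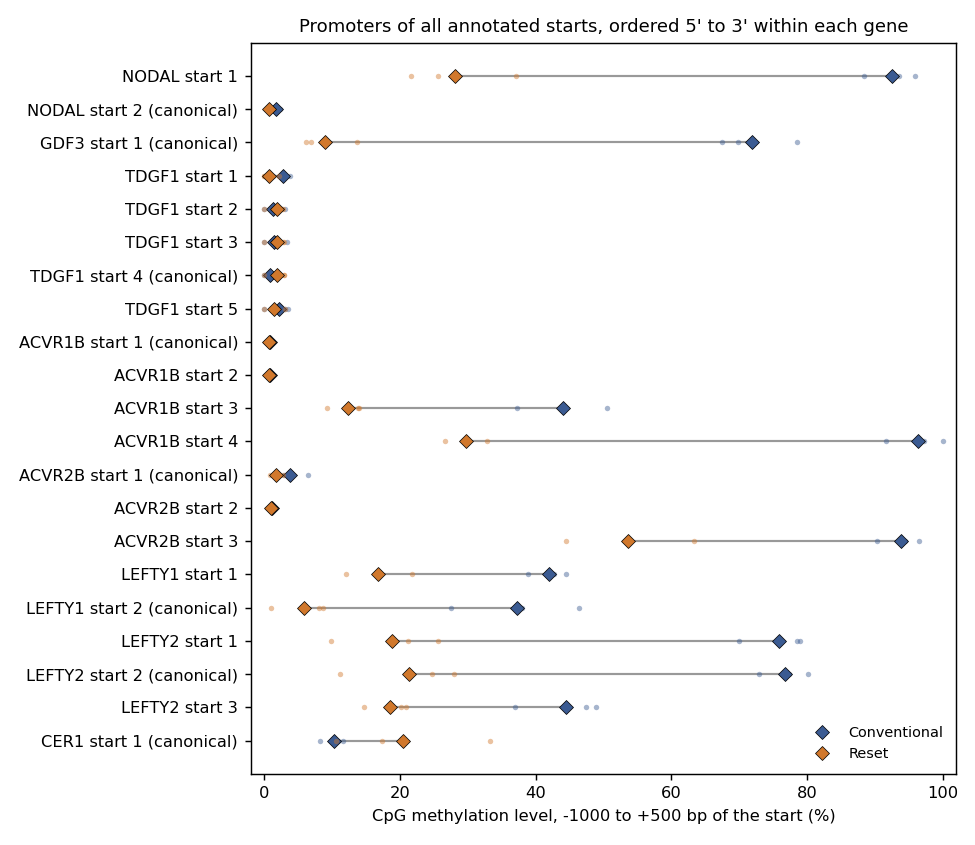
CpG methylation level (x axis, %) of the promoters of the annotated starts of the 8 genes (y axis, in 5′ to 3′ order within a gene), with small points for libraries, diamonds for means of 3 libraries and a grey line joining Conventional (blue) to Reset (orange). Starts of a gene with the same calls, such as 4 of ACVR1B, are drawn once. TDGF1 stays near 0, whereas NODAL, ACVR1B and ACVR2B each have an unmethylated canonical start and another start that is over 90% in Conventional cells and falls. At ACVR1B and ACVR2B that start lies inside the gene and belongs to a transcript not annotated as coding.

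In the 10 kb upstream of the canonical starts, 78 of the 93 tested tiles fell, none rose and 15 did not pass, where 86.1% of all 212174 tiles fell and 1.88% rose. The other 67 tiles had too few calls to be tested, and 4 of them held no CpG. Tiles at 50% or more in Conventional cells numbered 76. Their median level was 91.2% in Conventional and 29.6% in Reset cells, and the median share kept was 32.4%, against 38.8% for such tiles of all genes. All tested tiles of LEFTY1 (12) and CER1 (6) fell, as did 15 of 16 for GDF3, 13 of 15 for LEFTY2, 10 of 12 for NODAL, 9 of 11 for each of ACVR1B and ACVR2B, and 4 of 10 for TDGF1. Tiles are named here by their first base relative to the start. Lowest and highest refer to the tested tiles of a gene, and some tiles with too few calls lay beyond them.

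The lowest tested tile of NODAL was at -500 (2.09% in Conventional and 0% in Reset cells) and the highest at -3000 (97.4 to 32.8%), and the highest Reset level of a tested tile was 37.7% at -8000. GDF3 had no low tested tile. Its lowest, at -5500, was at 51.7 ± 12.7% against 34.0 ± 11.3% and did not pass, and its highest, at -7000, was at 100% in all Conventional libraries and at 57.1, 58.0 and 68.2% in Reset libraries, which was also the highest Reset level of its tested tiles. Methylation therefore persisted unevenly upstream of GDF3. In the tile at -2500, chosen after the values had been seen, it went from 96.5 ± 4.16 to 6.46 ± 2.49%.

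Among tested tiles TDGF1 was lowest at -3500 (0 against 2.56%) and highest at -6000 (92.6 to 30.2%), and the tile at -7000 was at 90.0 ± 4.82% in Conventional and 64.0 ± 13.2% in Reset cells. Upstream of ACVR1B the tile at -1000 had no methylated call in either group, the tile at -4000 went from 94.3 to 40.8%, and the highest Reset level of a tested tile was 46.4% at -9500. Among its tested tiles ACVR2B was lowest at -500 (1.2 against 1.13%) and highest at -2500 (97.7 to 54.4%). Its tile at -9000 had the highest Reset level of any named tile, 64.9 ± 17.8%, after 91.1 ± 4.18% in Conventional cells, and this fall no longer passed without Reset replicate 2 (-15.9 points, adjusted p = 0.104).

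Of the tested tiles LEFTY1 was lowest at -500 (42.9 to 3.23%) and highest at -5000 (98.3 to 41.2%), with the highest Reset level at -7000 (52.2%). Its untested tile at -1500, chosen after the values had been seen, had a lower Conventional level than that at -500, with 14.9 ± 9.74% in Conventional and 7.56 ± 1.61% in Reset cells. LEFTY2 had its lowest tested tile at -5000 (13.5 ± 8.66 against 6.36 ± 5.53%, not past the test), between Conventional levels of 90.3% at -3500, an untested tile, and 94.7% at -6000. The neighbouring tile at -4500, chosen after the values had been seen, went from 26 ± 1.91 to 5.56 ± 4.81% (adjusted p = 0.0149). The highest tested LEFTY2 tile was at -7500 (98.5 to 46.7%), and the highest Reset level was 60.3% at -6500. CER1 fell in its lowest tested tile, at -1500 (57.5 ± 8.02 to 19.7 ± 3.23%), and in its highest, at -6500 (98.0 to 46.7%), so its higher Reset values lay nearer to the start, where the tiles at -1000 (7.53 against 27.3%) and -500 (1.67 against 21.5%) held too few calls for the test and were chosen after the values had been seen.

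**Figure D3:**
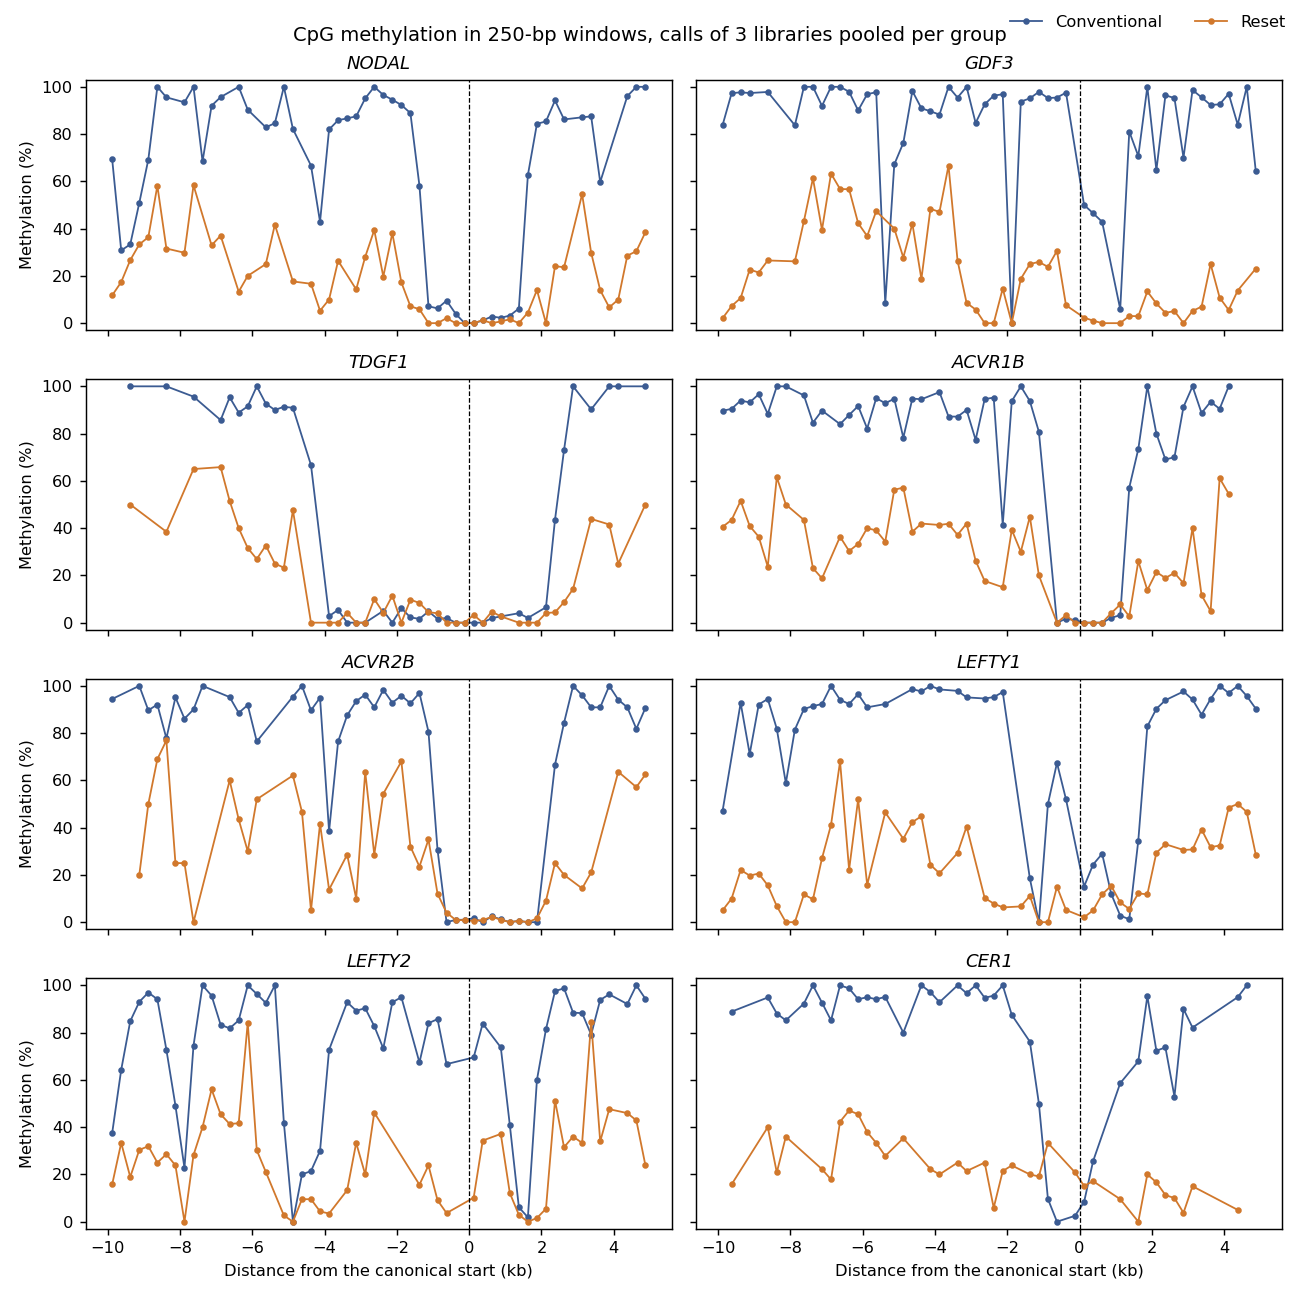
Pooled CpG methylation (y axis, %) in windows of 250 bp from 10 kb upstream to 5 kb downstream of the canonical start (x axis, kb; dashed line at the start), 1 panel per gene, Conventional in blue and Reset in orange, for windows with at least 10 calls in a group. NODAL, TDGF1, ACVR1B and ACVR2B show wide unmethylated stretches at the start in both states, LEFTY2 shows a dip near 5 kb upstream, and at CER1 the Reset line lies above the Conventional line just upstream of the start.

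A FOXH1-type motif, AATCCACA, was searched on both strands because FOXH1 is a known SMAD partner in this pathway. It occurred in 3.79% of all 19812 canonical promoters and, of the 8 genes, only in the CER1 promoter, at -949 bases from the start. In the 10 kb upstream and the gene it occurred 3 times at NODAL and ACVR1B, 4 times at ACVR2B, 2 times at LEFTY1, LEFTY2 and CER1, 1 time at TDGF1 and not at GDF3. The stretches searched differed in length, from 12865 bases at LEFTY1 to 49253 at ACVR2B and 55380 at ACVR1B. The counts therefore do not rank the genes, and other genes were not searched over such stretches. In the NODAL first intron (chr10:72200249-72200385, minus strand), a place of low methylation in Conventional cells, the motif occurred as a pair, printed here with the motifs in capitals and 20 bases on each side.
NODAL, first intron: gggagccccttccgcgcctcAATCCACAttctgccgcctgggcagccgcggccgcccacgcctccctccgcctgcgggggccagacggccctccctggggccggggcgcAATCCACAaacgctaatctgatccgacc
The motifs of the pair were 89 bases apart. CpGs within 100 bp of the NODAL pair, which begins 1072 bases downstream of the start, were at 3.15 ± 3.35 and 3.69 ± 3.47% in Conventional and at 1.85 ± 3.21 and 1.39 ± 2.41% in Reset cells. By contrast the third NODAL motif, 4541 bases downstream, lay in CpGs at 100% (36 calls) in Conventional and 23.3% (30 calls) in Reset cells. The CpGs near the motif of the CER1 promoter had pooled levels of 34.8 and 23.8% on 46 and 21 calls. A match is a description of sequence, and binding was not measured.

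All 8 gene bodies, from 500 bases past the start to the gene end, fell. Over all 19170 bodies 97.9% fell and 1.11% rose, so the call itself does not set these genes apart. The adjusted p ran from 3.586e-23 for ACVR1B to 2.475e-04 for LEFTY1. The depth of the fall varied. ACVR1B went from 88.6 ± 0.885 to 35.4 ± 1.47% and ACVR2B from 79.4 ± 1.42 to 35.6 ± 0.222%, and they kept 40 and 44.9% of the Conventional level. For bodies at 50% or more the median share kept was 40.3% (quartiles 34.2 and 44.7%), so that ACVR1B lay near the median and ACVR2B just above the upper quartile. LEFTY2 went from 61.1 ± 2.41 to 23.4 ± 0.971% and kept 38.3%.

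The bodies of the ligands and of CER1 kept less. CER1 was at 76.1, 71.9 and 75.9% in Conventional and at 9.88, 10.6 and 5.41% in Reset libraries, and kept 11.6%. GDF3 was at 87.9, 82.8 and 85.7% against 12.1, 10.5 and 13.7%, and kept 14.2%. NODAL was at 63.6, 60.8 and 64.3% against 18.3, 14.6 and 18.6%, and kept 27.3%. Of the 18126 bodies at 50% or more in Conventional cells, 1.26% kept less than CER1, 2.34% less than GDF3 and 12.8% less than NODAL. TDGF1 (40.1 ± 5.20 to 13.6 ± 4.38%) and LEFTY1 (40.6 ± 9.86 to 17 ± 6.71%) began under 50%.

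**Figure D4:**
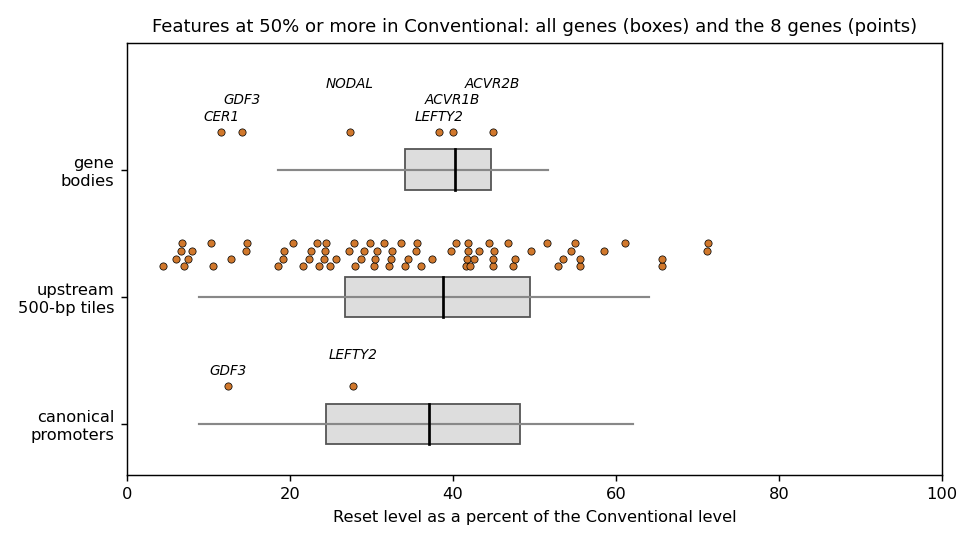
Reset level as a percent of the Conventional level (x axis) for canonical promoters, upstream tiles and bodies that were at 50% or more in Conventional cells (y axis), with grey boxes for the quartiles, black bars for the median and lines for the 5th to 95th percentile over all genes, and orange points for the 8 genes. The CER1 and GDF3 bodies, at 11.6 and 14.2%, lie left of the line for all bodies, and the ACVR1B, ACVR2B and LEFTY2 bodies lie in or next to the box. Bodies were not matched for length or number of calls.

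Within the genes the parts differed. The 3′ UTR of CER1 (7 CpGs) was at 92.9, 82.9 and 100% in Conventional and at 5.56, 2.70 and 4% in Reset libraries, and its first intron went from 72.1 ± 4.11 to 11.0 ± 10.5%, whereas its first exon was at 17.7 ± 5.20 and 17.4 ± 9.13%. The GDF3 first intron went from 83.8 ± 2.05 to 8.04 ± 1.89%, and its first exon from 46.5 ± 4.07 to 2.09 ± 2.29%. The first exon of NODAL had no methylated call in any library, its first intron went from 42.9 ± 4.94 to 8.48 ± 1.71%, and its later intron kept more, from 88.2 ± 1.67 to 41.9 ± 3.83%. The 3′ UTRs of ACVR1B, ACVR2B, TDGF1 and LEFTY2 were at 92.6 to 97.3% in Conventional and at 37.2 to 45.5% in Reset cells. These parts were not tested on their own.

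LEFTY1 and LEFTY2 shared a CpG-dense stretch inside the gene with low methylation in both states. At LEFTY1 the windows centred 1125 and 1375 bases downstream, with 12 and 34 CpGs, had pooled levels of 2.78 and 1.22% in Conventional and 8.33 and 5.61% in Reset cells. At LEFTY2 the windows centred at 1375 and 1625, with 30 and 23 CpGs, were at 6.10 and 1.85% against 2.90 and 0%. Past this stretch the Conventional level was 34.5 and 82.9% in the LEFTY1 windows at 1625 and 1875, where Reset cells were at 12.2 and 11.8%. For LEFTY2 it was 60.0 and 81.4% in the windows at 1875 and 2125, where Reset cells were at 1.56 and 5.48%. These windows were chosen after the values had been seen and were not tested.

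For the promoters that fell by at least 20 points, the nearest promoters by Euclidean distance over the 6 library levels were named. GDF3 was nearest to CYBB, a subunit of the phagocyte NADPH oxidase (5.52 points), and S100A6, a calcium-binding protein (6.53 points). LEFTY1 was nearest to the chemokine-like gene CKLF (8.73) and to the unnamed gene ENSG00000274322 (8.78), and LEFTY2 to the cytokine IL18 (7.16) and the glycoprotein hormone subunit GPHB5 (10.1). These distances cover 2 groups of 3 libraries and describe likeness of level only.

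Of 29 other genes of the pathway, 11 promoters fell, 4 rose and 14 did not pass, where 67.4% of all canonical promoters fell and 3.98% rose. Their median level was 3.67% in Conventional and 4.80% in Reset cells, against 15.4 and 4.98% over all promoters. Starting from this lower level, their median difference was -0.600 points, against -9.59 points over all promoters. FURIN, a protease that cleaves pro-NODAL, fell the furthest, from 89.1 ± 1.44 to 18.5 ± 9.03% (adjusted p = 1.529e-07). CFC1, a co-receptor related to TDGF1, went from 99.1 ± 1.60 to 61.0 ± 25.8% (adjusted p = 0.00148), on 10 to 36 calls per library and with the near-identical copy CFC1B, so its value is uncertain, and without Reset replicate 2 the difference was -23.4 points (adjusted p = 0.0116) in place of -38.1. The NODAL antagonist DAND5 went from 84.7 ± 5.39 to 38.4 ± 4.05%, the SMAD partner FOXH1 from 14.8 ± 2.54 to 5.26 ± 2.32%, and the target MIXL1, a homeobox gene of the primitive streak, from 16.5 ± 4.16 to 7.44 ± 1.85%.

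The 4 promoters that rose were all low in Conventional cells, and 3 were targets. GSC, a homeobox gene of the organizer, was at 0.326, 1.44 and 0% in Conventional and at 4.90, 2.51 and 10.8% in Reset libraries (adjusted p = 0.00482), and without Reset replicate 3 the rise was 3.12 points (adjusted p = 0.0168) in place of 5.49. EOMES, a T-box gene of mesendoderm, was at 1.94, 0.524 and 1.21% against 5.98, 6.45 and 3.76% (adjusted p = 0.00882). TBXT, a T-box gene of mesoderm, was at 0, 0.752 and 0.680% against 2.51, 3.19 and 1.05% (adjusted p = 0.0334). FST, which binds activin, was at 0.297, 0 and 0% against 0.766, 5.04 and 0.977% (adjusted p = 0.0111). FST no longer passed without Reset replicate 2 (adjusted p = 0.115), and TBXT no longer passed without Conventional replicate 1 or 3 or Reset replicate 1 or 2 (adjusted p from 0.05001 to 0.103), nor on an arcsine scale with limma (adjusted p = 0.0768). With a promoter from -500 to +500 the rises of GSC, EOMES and TBXT and the falls of MIXL1 and FOXH1 no longer passed. Each rise was under 6 points with the promoter from -1000 to +500, whereas from -2000 to +500 TBXT rose by 14.7 points (adjusted p = 4.512e-07) and GSC by 10.2 points (adjusted p = 2.886e-06), and the list gave 16 falls and 5 rises. Over all promoters from -2000 to +500, 88.6% fell and 2.43% rose.

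**Figure D5:**
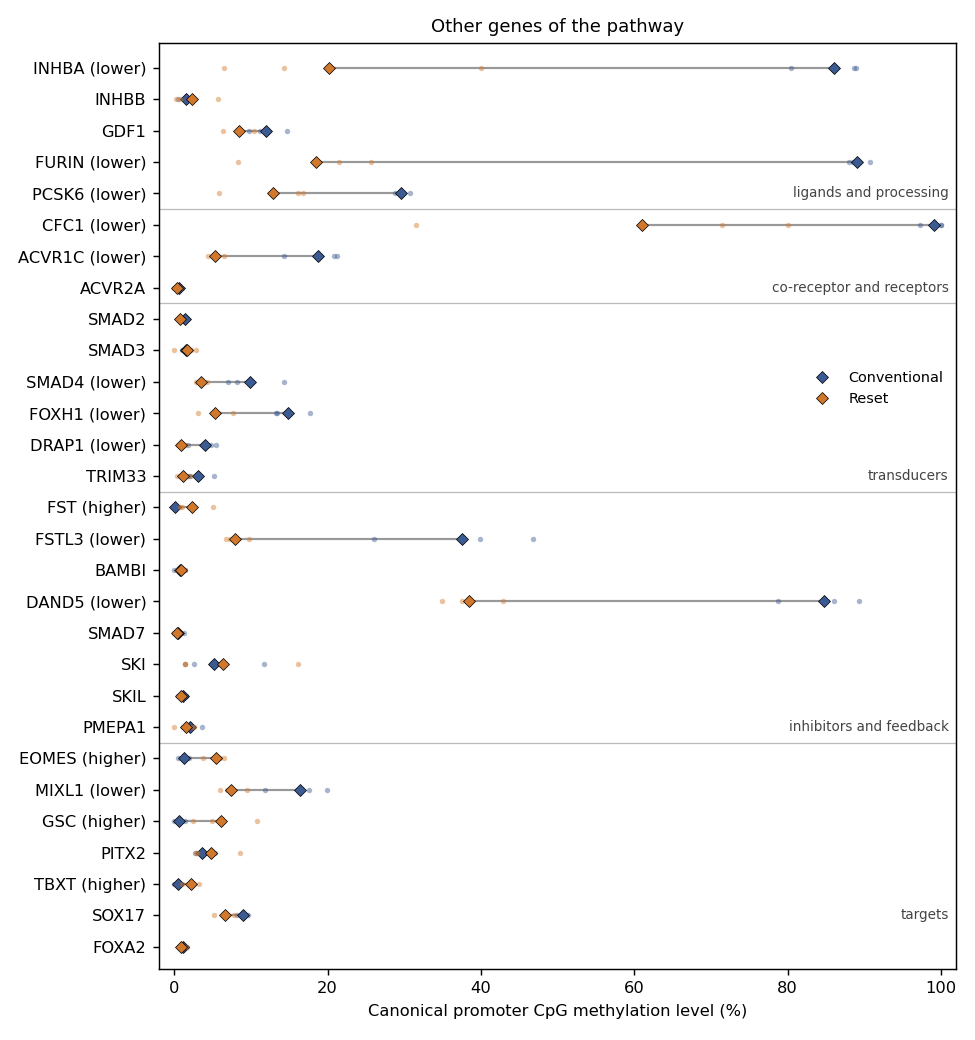
Canonical promoter methylation level (x axis, %) of 29 other pathway genes (y axis, grouped by role), with small points for libraries, diamonds for means of 3 libraries, and Conventional in blue and Reset in orange. Genes past the test are marked lower or higher. FURIN, INHBA, CFC1 and DAND5 start high and fall, and FST, EOMES, GSC and TBXT rise from levels under 2%.

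Promoters of genes known from naive cells were low in Reset cells. DPPA3 was at 79.9 ± 10.1% in Conventional against 4.41 ± 4.02% in Reset cells, and TFCP2L1 at 22.7 ± 1.47 against 3.74 ± 1.81%. Of all canonical promoters at 50% or more in Conventional cells, 99.2% had every Reset library below every Conventional library. For those at 20 to 50% the share was 85.6%. Such falls therefore cannot serve as a check of the labels. The pluripotency genes SOX2 and NANOG were under 7% in both groups, and POU5F1 was at 14.8 ± 5.94 against 2.68 ± 2.39%. Of 5 fibroblast genes, COL1A2 rose from 3.11 ± 1.2 to 27.9 ± 9.52%, THY1 from 11.4 ± 2.31 to 20.2 ± 8.21% and VIM from 2.34 ± 1.55 to 7.80 ± 2.37%, S100A4 fell from 85.8 ± 2.15 to 50.6 ± 6.93%, and CD44 was at 5.09 ± 1.93 against 6.89 ± 2.87%. The promoter levels of these genes in feeder cells were not measured, and the part of feeder DNA in any value was not tested.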

How the data were processed

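DNA of H9 cells was bisulfite-treated and sequenced in 6 libraries. Reads were trimmed with Trim Galore and aligned to GRCh37 with Bismark, given as version 0.9.0 with Bowtie2 in the submitters' processing notes, while the study's methods name an older Bismark. Removal of duplicate reads is not given in the sources used here, and no cytosine held more than 102 calls in any library. The deposited counts are methylated and unmethylated calls per CpG cytosine, not normalized. The percent that the authors deposited beside them was checked to equal the methylated share within 0.01 points. Positions matched CpGs when counted from 0 (99.8% of them), calls on both strands were summed, and printed coordinates count from 1. GENCODE release 44 for GRCh37 gave the genes, with sequences read from the GRCh37 genome.

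Each feature with at least 10 calls in every library was tested with a quasi-binomial logistic model in Python 3.11.15 (numpy 2.4.6, scipy 1.17.1), its dispersion squeezed with limma 3.58.1 in R 4.3.3 and not allowed below 1. The p-values of each feature type were adjusted together, with a threshold of 0.05. The test was tried on simulated data. The median canonical promoter held 566 Conventional and 539 Reset calls, and the median upstream tile 90.0 and 78.0. Intervals and limits cover counting error only, since amplified reads are not independent molecules. The study describes biological replicates, but the labels do not say how cultures were separated, so p-values speak only for these libraries. They rest on the spread between libraries, shared in part across all features, and never on less than counting error. Deviations of same-numbered libraries were barely correlated (0.00703, 0.0114 and 0.00947), so the main model did not use the numbers as pairs. Alternatives were Fisher's exact test, a replicate block, minimums of 5 and 30 calls, CpGs over 20 calls left out, an arcsine scale with limma, each library left out, promoters from -500 or -2000 to +500, tiles of 1000 bp, and bodies from the start. The 8 genes and the gene lists were chosen with earlier results of these data known. Named in the text were the 8 genes, the pathway gene with the largest fall in each role and all that rose, for each gene the tiles with the lowest and highest Conventional and the highest Reset level, the 2 nearest promoters of each gene that fell by at least 20 points, and the motif. Some sequences are not reported here.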

Additional observations from a re-analysis of the deposited data

How the results depend on the processing

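The 3 falls among canonical promoters (GDF3, LEFTY1, LEFTY2) and the 8 falls among bodies passed under every alternative run for them, and no fall or rise of the 8 genes' canonical promoters, starts or bodies turned direction after passing the test. From -2000 to +500, 6 canonical promoters and 19 starts fell, NODAL (-13.2 points), ACVR1B (-11.0) and ACVR2B (-14.2) and their neighbouring starts and the first TDGF1 start (-19.9 points) being added, and CER1 differed by -8.74 points (adjusted p = 0.130). Over all genes, 88.6% of promoters and 92.1% of starts fell with this window. From -500 to +500 the pathway list gave 4 falls and 1 rise, and FOXH1 was 1.46 points higher in Reset (adjusted p = 0.952 in the quasi-binomial model). With that window 39.6% of all promoters fell and 4.40% rose. Fisher's exact test added 1 rise, CER1, among canonical promoters and among starts, where 5.52% of all promoters and 3.57% of all starts rose. Among tiles, a minimum of 30 calls left 9 tested and 6 falls, where 50.04% of all 40906 tiles tested at that minimum fell. A minimum of 5 calls and tiles of 1000 bp each added 1 rise at CER1, and the arcsine scale added 1 rise at TDGF1 (-2500). Over all genes, 1.44% of tiles rose with a minimum of 5 calls, 1.49% with tiles of 1000 bp and 1.56% on the arcsine scale. Tiles of 1000 bp without Reset replicate 2 or 3, chosen after seeing the data, also gave 1 rise each, at CER1 without replicate 2 and at TDGF1 (-3000) without replicate 3. Of all such tiles 1.38% rose without replicate 2 and 1.40% without replicate 3.

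With each library left out in turn, falls numbered 3 to 3 for canonical promoters, 10 to 11 for starts, 76 to 87 for tiles, 8 to 8 for bodies and 11 to 11 for the pathway list. The added start was the canonical start of ACVR2B, without Conventional replicate 1. Over all genes, 63.4 to 65.5% of promoters, 74.8 to 76.1% of starts, 84.3 to 85.3% of tiles and 97.7 to 97.8% of bodies fell in these fits. The number of tiles tested over all genes changed with the library left out. Rises ranged from 0 to 0 for canonical promoters, bodies and tiles of 500 bp, from 0 to 1 for starts (CER1 without Reset replicate 1), and from 2 to 4 for the pathway list (2 without Reset replicate 2). Over all genes, 3.36 to 3.71% of promoters and 2.43 to 2.62% of starts rose in these fits. With the replicate number as a block, 3 canonical promoters, 10 starts, 77 tiles, 8 bodies and 11 pathway promoters fell, and 3 pathway promoters rose, since TBXT no longer passed under the block (adjusted p = 0.0517 in the quasi-binomial model). Under the block 65.9% of all promoters, 76.1% of all starts, 81.1% of all tiles and 97.9% of all bodies fell. Of all promoters 3.62% rose. Each library correlated best with its own number, but at values under 0.02, which is a hint from the data and not from the design. At 2.51 to 3.49 calls per CpG, single CpGs could not be compared and 67 of 160 tiles could not be tested.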
